A study of Saccharomyces cerevisiae with 96 samples.

Results

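Heat shock proteins and cytosolic chaperones were followed here in 12 strains of the budding yeast Saccharomyces cerevisiae, before and after laboratory evolution on the pentose sugar xylulose. The set held 10 genes of the 6701 rows in the expression table, chosen by name: HSP12 (YFL014W), HSP26 (YBR072W), HSP42 (YDR171W), HSP30 (YCR021C), HSP82 (YPL240C), HSC82 (YMR186W), HSP104 (YLL026W), SSA1 (YAL005C), SSA2 (YLL024C) and SSA4 (YER103W). All 10 passed the filter on low values, a mean over the columns of at least 10 RPM (reads scaled to a library total of 1000000), as did 5129 genes in all. The evolved group were populations propagated for about 300 generations by serial dilution in YP-xylulose, so each is a mixed culture and not a clone. The wild type group were the same 12 strains before evolution: YPS1009, T73, T7, Y12, YJM269, PW5, CLIB215, CLIB324, CBS7960, EC1118, BY4743 and SK1. Both groups were grown to mid log phase on rich medium with xylulose (YP-xylulose, made from xylose and still containing it) or with glucose (YPD). The paper states that the 2 repeats of each strain and condition were averaged. The deposited values have 48 columns, 12 for each combination of history and sugar.

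Heat shock proteins are chaperones and related proteins whose messages rise when proteins unfold or when cells slow their growth. In yeast, Hsf1 binds heat shock elements (HSE), arrays of inverted GAA units, and Msn2 and Msn4 bind stress response elements (STRE). Msn2 and Msn4 are held in check by protein kinase A, which is active in cells growing on plentiful glucose. Hsp70 proteins (SSA1, SSA2, SSA4) bind unfolded stretches of protein with the help of J proteins, Hsp90 proteins (HSP82, HSC82) hold late folding intermediates of client proteins, and Hsp104 pulls proteins out of aggregates. Hsp26 and Hsp42 are small heat shock proteins that bind unfolding proteins without ATP, Hsp12 associates with membranes, and Hsp30 sits in the plasma membrane and restrains the proton pump Pma1.

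The strain names of the evolved columns did not all match the wild type columns of the same name. Each evolved column was matched to a different wild type column so that the summed r was highest. This used 59 genes that differed between the wild type strains in the same way on both sugars (r of at least 0.8). The 4 evolved columns numbered 1 to 4 were matched to the wild type columns of their own number. The 8 evolved columns numbered 5 to 12 were each matched to another number, with numbers 5 to 8 and 9 to 12 exchanged as blocks. The evolved column labelled YJM269, for example, was matched to wild type CBS7960 (r = 0.91) and not to wild type YJM269 (r = -0.00). For these 8 columns r averaged -0.12 against the same number and 0.79 against the exchanged one. This match does not show whether the names of the evolved or of the wild type columns are the exchanged ones, which was not checked further. Strain names of numbers 5 to 12 are therefore used as labelled in both groups. Group means are the same either way, but the error of evolved minus wild type is not, so those comparisons are given as labelled and, where the call differs, with the numbers exchanged. The spread of the paired difference on xylulose was smaller after the exchange for 10 of the 10 chaperone genes.

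The upstream regions are shown first, since the members carry different elements. Whether these elements bear on the responses of the members was not tested. The 500 bases before each start codon of 6019 genes were searched on both strands, in the R64 reference genome, for an HSE of 2 units (GAANNTTC or TTCNNGAA) and for a STRE (AGGGG or CCCCT). A 2-unit HSE lay upstream of 35.1% of these genes, an array of 3 alternating units upstream of 1.48%, and a STRE upstream of 34.0%. At least 3 STREs were found for 1.83% of genes. HSP12 had 5 STREs and no HSE, and HSP26 and SSA4 had 3 STREs and 1 HSE each. HSP42 and HSP104 had 3 STREs each beside overlapping 3-unit arrays, SSA1 had 2 STREs and 3 overlapping or separate 3-unit matches, and HSP82 had 2 STREs and 2 separate HSEs. HSC82, with 3 HSEs, and SSA2, with 4 of which some overlap, had no STRE, and HSP30 had neither element. In the stretches below, read 5′ to 3′ towards the start codon, the capitals mark the GAA and TTC units of HSEs and the STREs. A match to these letters is a description of the sequence and not a measured binding site.
HSP12, chrVI:106816-107075, forward strand: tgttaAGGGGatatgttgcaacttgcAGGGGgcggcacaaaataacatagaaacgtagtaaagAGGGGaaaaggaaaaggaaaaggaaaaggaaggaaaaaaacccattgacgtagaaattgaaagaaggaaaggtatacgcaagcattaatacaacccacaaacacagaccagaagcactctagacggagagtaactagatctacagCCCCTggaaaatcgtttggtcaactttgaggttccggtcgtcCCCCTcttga
HSP42, chrIV:806371-806450, forward strand: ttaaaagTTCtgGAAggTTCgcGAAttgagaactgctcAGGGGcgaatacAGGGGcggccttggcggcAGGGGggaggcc
HSP104, chrXII:88313-88462, forward strand: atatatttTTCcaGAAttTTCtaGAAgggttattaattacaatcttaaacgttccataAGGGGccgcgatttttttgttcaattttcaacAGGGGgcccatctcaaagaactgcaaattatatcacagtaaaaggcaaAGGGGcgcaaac
SSA1, chrI:141582-141801, reverse strand: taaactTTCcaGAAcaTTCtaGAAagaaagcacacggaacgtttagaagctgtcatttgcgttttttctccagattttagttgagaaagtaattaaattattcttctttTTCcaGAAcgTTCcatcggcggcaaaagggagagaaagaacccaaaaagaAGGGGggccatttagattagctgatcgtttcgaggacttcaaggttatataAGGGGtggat
HSP82, chrXVI:98681-98865, reverse strand: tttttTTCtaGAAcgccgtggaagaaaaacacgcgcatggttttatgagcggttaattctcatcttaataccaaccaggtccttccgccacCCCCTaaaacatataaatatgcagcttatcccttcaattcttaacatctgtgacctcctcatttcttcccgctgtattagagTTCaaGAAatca
SSA2, chrXII:97656-97735, reverse strand: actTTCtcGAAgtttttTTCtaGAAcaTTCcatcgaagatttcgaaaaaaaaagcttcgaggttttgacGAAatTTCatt
HSC82, chrXIII:632135-632319, forward strand: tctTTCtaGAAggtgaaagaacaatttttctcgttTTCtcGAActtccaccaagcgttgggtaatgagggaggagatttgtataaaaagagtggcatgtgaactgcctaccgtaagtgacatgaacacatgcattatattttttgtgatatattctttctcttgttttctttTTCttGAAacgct

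In these stretches HSP12 shows all of its STREs, and HSP42, HSP104, SSA2 and HSC82 show all of their matches. The stretch of SSA1 leaves out an HSE 141 bases before the start codon and that of HSP82 leaves out a STRE at 396 bases. HSC82 and SSA2 are the near copies of HSP82 and SSA1, and in both pairs the copy without a STRE is the one known for steady expression.

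Reads of 50 bases cannot always be assigned between near copies, so the coding ends of both pairs are given as well. The coding sequences of HSP82 and HSC82 were identical at 92.43% of aligned bases and those of SSA1 and SSA2 at 96.82%. Of all stretches of 50 bases, 6.39% in HSP82 also occurred in HSC82, against 57.9% of those in SSA1 that also occurred in SSA2. Within the last 500 coding bases these shares were 14.2% for HSP82 and 41.9% for SSA1. None of the 251 stretches in the 300 bases after the stop codon was shared in either pair. The libraries were fragmented before poly(A) selection, which places reads near the 3′ end, and how reads with several matches were counted is not given in the sources used here. Values of SSA1 and SSA2 are therefore less certain than the others, and those of HSP82 and HSC82 may be affected to a lesser extent. The last 90 coding bases are shown with the bases that differ within each pair in capitals, 10 in the Hsp90 pair and 12 in the Hsp70 pair.
HSP82, chrXVI:96496-96585, reverse strand: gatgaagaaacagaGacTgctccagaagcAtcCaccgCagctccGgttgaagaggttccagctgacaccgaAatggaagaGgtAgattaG
HSC82, chrXIII:634383-634472, forward strand: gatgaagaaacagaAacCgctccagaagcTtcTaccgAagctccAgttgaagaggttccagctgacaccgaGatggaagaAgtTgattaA
SSA1, chrI:139503-139592, reverse strand: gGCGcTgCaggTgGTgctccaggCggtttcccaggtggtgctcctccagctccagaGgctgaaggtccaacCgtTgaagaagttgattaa
SSA2, chrXII:95566-95655, reverse strand: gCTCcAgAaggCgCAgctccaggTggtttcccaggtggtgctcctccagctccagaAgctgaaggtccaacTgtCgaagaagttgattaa

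All values are RPM after the authors scaled each library to 1000000 reads, and values under 10 RPM were left blank in the table. Column totals ran between 888352 and 1005807 RPM. In 17 of 48 columns the low values fell on whole steps that imply 253336 to 1114087 reads (median 680945), so the limit of 10 RPM corresponded to 6.81 reads at the median depth. These 17 columns were 7 wild type and 4 evolved columns on glucose, and 5 wild type and 1 evolved on xylulose. A mean of 2 separately scaled libraries would not in general lie on 1 step. Whether these 17 columns average 2 repeats is therefore not known. The depth of the other 31 columns is unknown, and precision may differ between the groups. Blanks were set to 10 RPM, so a change is understated where the lower group alone has blanks, and its direction can depend on them where both groups do. Over all genes tested, 1562 were higher and 481 lower on xylulose than on glucose in wild type, with a median log2 change of 0.31. Rescaling by the median of ratios lowered that median to 0.14 and gave 1116 higher and 667 lower genes, and taking off the median of each chromosome gave 928 and 842. In evolved populations the split was 1233 higher and 795 lower, against 1023 and 1002 after rescaling by the median of ratios.

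Together the 10 genes made up a small share of each library, and the share was largest in evolved populations on glucose. Their summed level had a median of 2305 RPM in evolved populations on xylulose (1568 to 9957) and of 6748 RPM in evolved populations on glucose (3949 to 17668). In wild type strains it was 3550.04 RPM on xylulose (1316 to 13779) and 3920.5 RPM on glucose (2709.6 to 9493). The ranges of all 4 conditions overlapped.

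**Figure D1:**
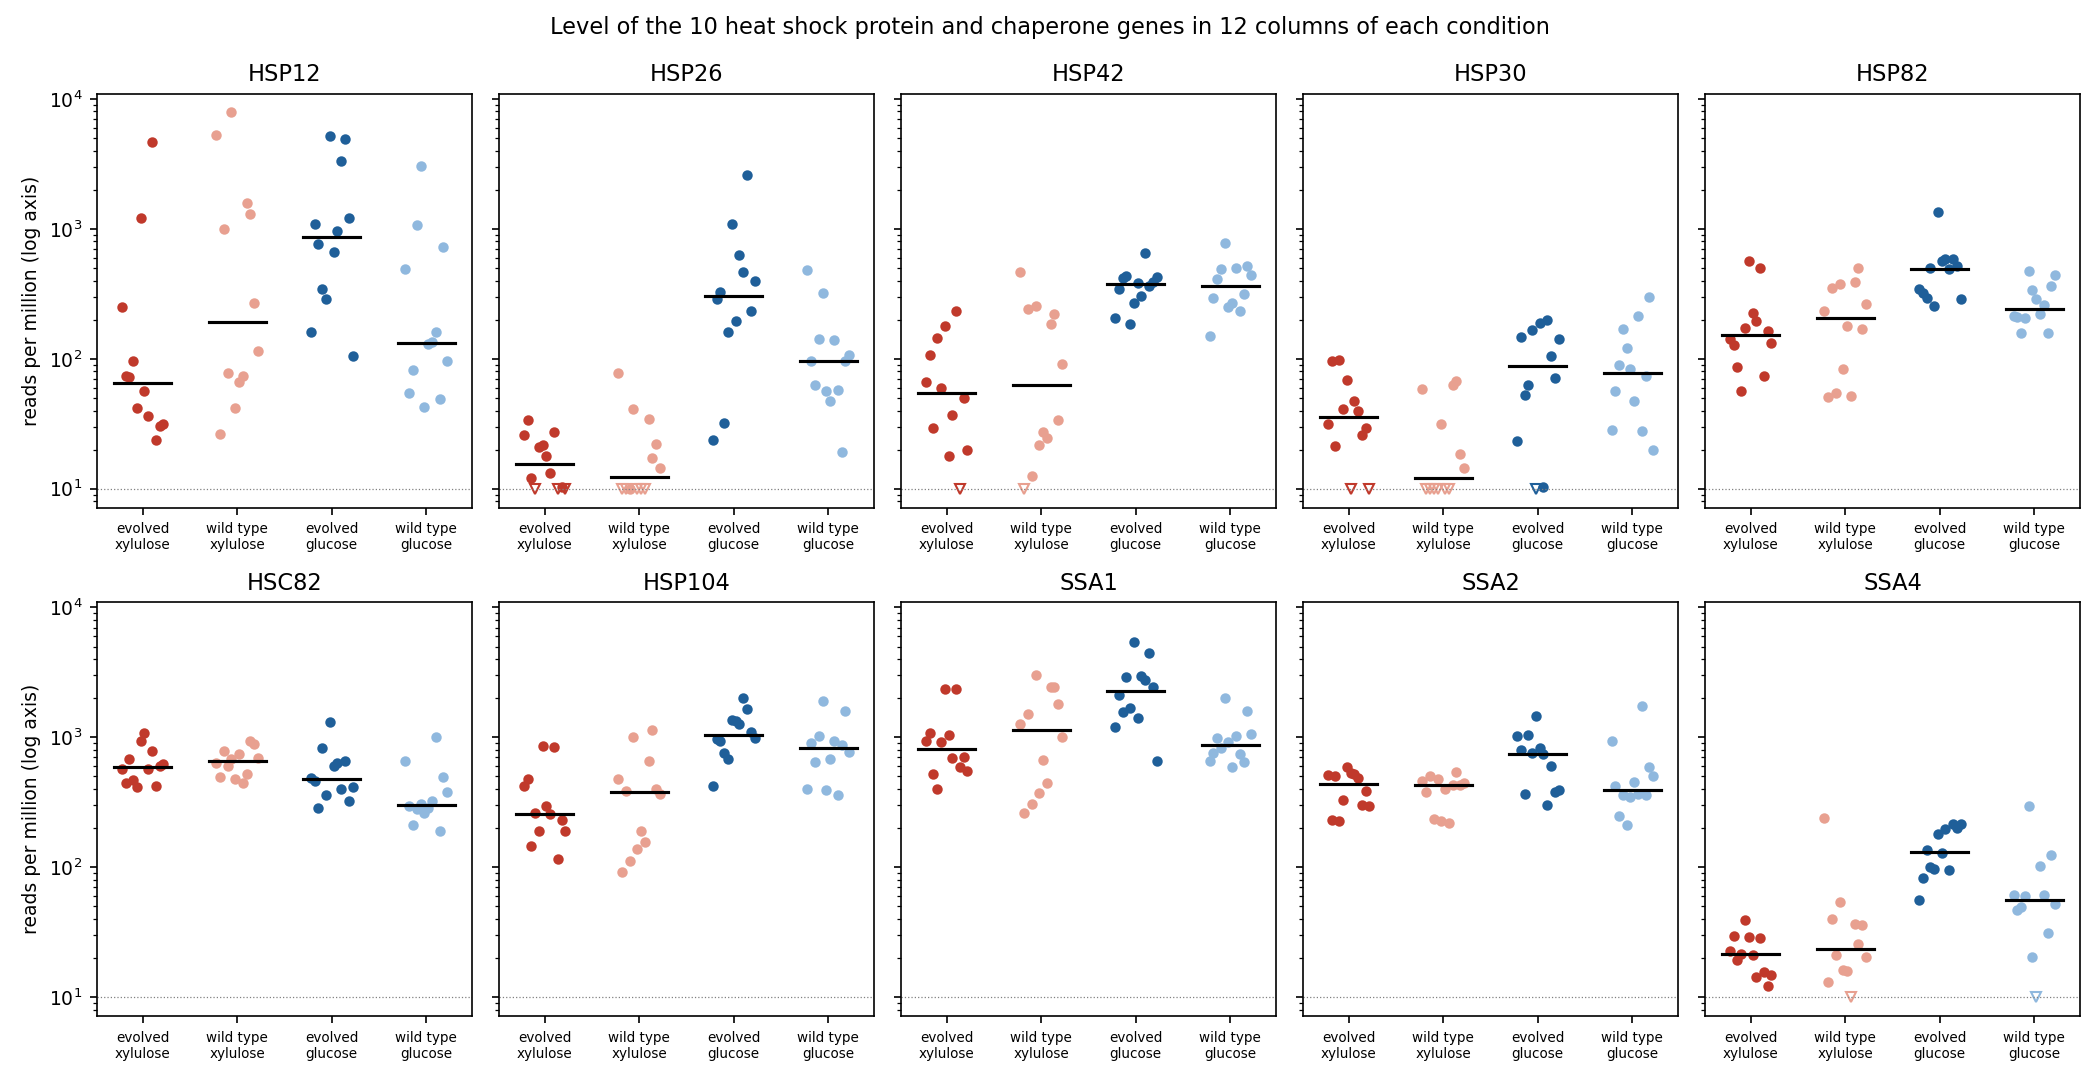
Level of each of the 10 genes in RPM (log axis) in evolved populations and wild type strains on xylulose and on glucose. Dots are the 12 columns of a condition, bars are medians, open triangles are columns below the limit of 10 RPM and the dotted line is that limit. SSA4 in evolved populations sits between 12.3 and 39.3 RPM on xylulose and between 56.05 and 217 RPM on glucose, with no overlap.

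The first comparison was that of the 2 sugars in evolved populations. In these, 8 of the 10 genes were lower on xylulose than on glucose and none was higher, where 15.5% of all tested genes were lower, 24.0% higher and 39.5% changed in either direction (limma on differences within strain numbers, Benjamini-Hochberg adjusted p under 0.05 over all tested genes). The median log2 change of the members was -1.66, beside 0.08 over all tested genes. The stress-inducible genes HSP26, HSP12, HSP42 and SSA4 were between 6.19-fold and 16.9-fold lower, and HSC82 and HSP30 were the 2 members that did not pass. All 8 calls were kept under each of the 27 alternatives. In the same columns, 6 of 6 tested mating type a genes and 9 of 9 tested phosphate starvation genes were also lower. Their summed medians were 20.7 and 115 RPM in evolved populations on xylulose, against 1467 and 3839.5 RPM on glucose, and their part in the result was not tested.

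HSP26, the small heat shock protein, was blank in 3 evolved columns on xylulose and had a median of 15.5 RPM and a highest value of 33.9 RPM there, against 23.6, 307 and 2592 RPM (lowest, median, highest) in evolved populations on glucose. The xylulose values were low in every column, and the highest glucose column was 109.7-fold above the lowest. Its log2 change was -4.08 ± 0.46 (SE, n = 12 strain numbers, adjusted p = 4.15e-07), lower in 11 of 12.

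HSP12 stood at 23.6, 65.0 and 4658 RPM in evolved populations on xylulose, against 106, 867 and 5207 RPM on glucose. It was lower on xylulose in 10 of 12 strain numbers, with a log2 change of -2.99 ± 0.50 (adjusted p = 6.19e-05). HSP42, the other small heat shock protein, was below the limit in 1 column on xylulose, with a median of 54.6 and a highest value of 231 RPM, against 185, 375 and 648 RPM on glucose. HSP42 was lower on xylulose in 12 of 12 strain numbers (log2 change -2.71 ± 0.33, adjusted p = 9.99e-07), and 1 xylulose column, at 231 RPM, lay above the lowest glucose column.

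SSA4, the Hsp70 gene best known for induction by heat, was at 12.3, 21.3 and 39.3 RPM in evolved populations on xylulose, against 56.05, 132 and 217 RPM on glucose. It was the 1 member whose 2 groups did not overlap, which held for 4.52% of all tested genes. Its log2 change was -2.63 ± 0.26 (adjusted p = 7.29e-08). SSA1 was at 403, 810.3 and 2358 RPM on xylulose and at 661, 2279.9 and 5461 RPM on glucose, lower in 12 of 12 strain numbers (log2 change -1.29 ± 0.22, adjusted p = 7.93e-05). SSA2 was at 228, 437 and 595 RPM on xylulose and at 300.5, 749.8 and 1449 RPM on glucose, a smaller change of -0.73 ± 0.20 (adjusted p = 0.00639) in 9 of 12. All members of the Hsp70 family in the set were thus lower, by 1.66-fold to 6.19-fold.

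HSP104, the disaggregase, was at 116, 258 and 865 RPM in evolved populations on xylulose, against 425, 1047 and 2008 RPM on glucose (log2 change -1.83 ± 0.23, adjusted p = 1.79e-06). HSP82, the inducible Hsp90 gene, was at 56.8, 153 and 565 RPM on xylulose and at 253, 493 and 1344 RPM on glucose (log2 change -1.49 ± 0.21, adjusted p = 5.91e-06). Both were lower in 11 of 12 strain numbers. HSC82, its steadily expressed copy, was at 414, 587 and 1071 RPM on xylulose and at 286, 475 and 1308 RPM on glucose, with a log2 difference of 0.24 (95% interval -0.11 to 0.59, adjusted p = 0.280). HSP30 was blank in 2 xylulose columns and 1 glucose column, with medians of 35.7 RPM on xylulose and 88.4 RPM on glucose, and its difference of -0.97 did not pass (interval -1.97 to 0.03, adjusted p = 0.118). HSP30 passed when strain number 6 or 8 was left out (adjusted p = 0.0230 and 0.0394).

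**Figure D2:**
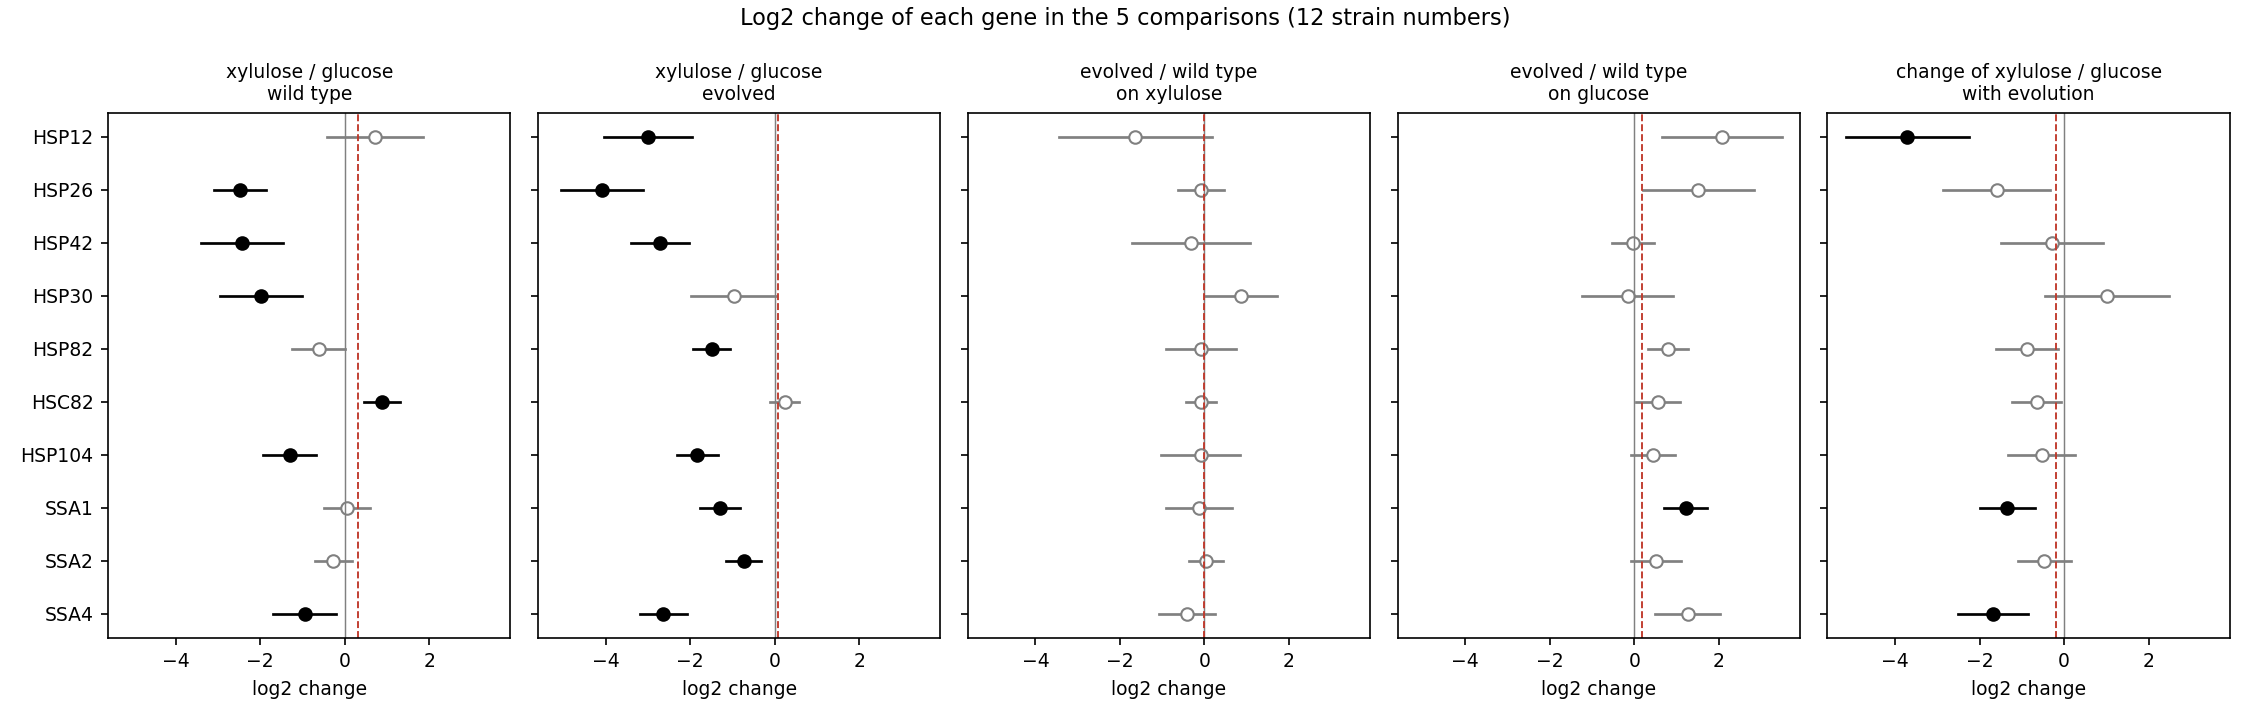
Log2 change of each of the 10 genes in the 5 comparisons, with its 95% interval over 12 strain numbers. Filled black points have an adjusted p under 0.05 over all tested genes, open points do not, and the dashed red line is the median of all tested genes. In evolved populations 8 genes lie left of zero with filled points on xylulose over glucose, and none of the 10 has a filled point for evolved over wild type on xylulose.

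In wild type strains the same 2 sugars were compared before any evolution. Here 5 members were lower on xylulose (HSP26, HSP42, HSP30, HSP104 and SSA4) and 1, HSC82, was higher, where 9.38% of all tested genes were lower, 30.5% higher and 39.8% changed in either direction. The median of the members was -0.78, beside 0.31 over all tested genes. HSP12, HSP82, SSA1 and SSA2 did not pass.

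HSP26 was blank in 5 wild type columns on xylulose, with a median of 12.3 and a highest value of 77.7 RPM, against 19.2, 96.1 and 483 RPM on glucose. It was lower in 12 of 12 strains (log2 change -2.48 ± 0.30, adjusted p = 1.36e-06). HSP42 was below the limit in 1 xylulose column, with a median of 63.0 and a highest value of 469 RPM, against 149, 364 and 776 RPM on glucose (log2 change -2.43 ± 0.47, adjusted p = 0.000305), lower in 11 of 12. The small heat shock proteins were therefore low on xylulose in wild type strains too, by 5.59-fold and 5.37-fold.

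HSP30 was blank in 6 of 12 wild type columns on xylulose, with a highest value of 67.0 RPM, and stood at 19.9, 78.1 and 301 RPM on glucose. Its log2 change was -1.99 ± 0.46 (limma, adjusted p = 0.00179). All 12 glucose columns lay above the limit, so the 6 blank strains were lower on xylulose, by an understated amount. With blanks left missing, which drops those strains, the change was -0.64 over 6 strains (limma, adjusted p = 0.389). HSP104 was at 91.9, 378 and 1147 RPM on xylulose and at 359, 824 and 1920.2 RPM on glucose (log2 change -1.31 ± 0.30, adjusted p = 0.00164), lower in 9 of 12. SSA4 was below the limit in 1 column on each sugar, with medians of 23.3 RPM on xylulose and 55.9 RPM on glucose. Its change of -0.95 ± 0.36 (adjusted p = 0.0395) was called in 13 of the 27 alternatives.

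HSC82 was higher on xylulose in 10 of 12 wild type strains, at 444, 658 and 932 RPM against 191, 302 and 998 RPM on glucose (log2 change 0.88 ± 0.20, adjusted p = 0.00149). HSP82 was at 50.9, 207 and 497 RPM on xylulose and at 158, 241 and 472 RPM on glucose. Its log2 difference of -0.62 (interval -1.24 to -0.01) had an adjusted p of 0.100, and it passed after rescaling by the median of ratios (-0.80, adjusted p = 0.0466), after taking off the chromosome median (-1.01, adjusted p = 0.0127), and without strain 3 or 10. The Hsp90 genes thus differed in the sign of their difference between the sugars.

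HSP12 was spread too widely in wild type strains for a common direction. It stood at 26.3, 192 and 7881 RPM on xylulose and at 42.6, 133 and 3058 RPM on glucose, higher in 6 strains and lower in 6 (log2 difference 0.71, interval -0.43 to 1.86). SSA1 was at 260.5, 1139.8 and 3006 RPM on xylulose and at 591, 872 and 2009 RPM on glucose (0.05, interval -0.50 to 0.60), and rescaling turned its sign (-0.13). SSA2 was at 220.4, 427 and 543 RPM on xylulose and at 211, 395 and 1747 RPM on glucose (-0.27, interval -0.71 to 0.17). With strains 1 to 4 alone, 1 member was called, HSP26, and the calls over all genes fell too, to 373 higher and 108 lower of 5123.

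The next comparison set evolved populations against wild type strains on glucose, the sugar that was absent during evolution. SSA1 was higher in evolved populations and was the 1 member that passed as labelled, where 2.28% of all tested genes were higher, 0.0585% lower and 2.34% changed. Its levels on glucose were 661, 2279.9 and 5461 RPM in evolved populations against 591, 872 and 2009 RPM in wild type strains, and the ranges overlapped. The log2 change was 1.21 ± 0.24 (adjusted p = 0.00703), a 2.32-fold rise seen in 10 of 12 strain numbers, and it was kept under each of the 27 alternatives.

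With the evolved numbers exchanged, 3 members were higher on glucose, where 2.91% of all tested genes were higher and 3.12% changed: SSA1 (adjusted p = 0.00234), HSP82 (log2 change 0.80 ± 0.21, adjusted p = 0.0298) and HSP12 (2.08 ± 0.57, adjusted p = 0.0429). As labelled, the adjusted p was 0.0768 for HSP82 and 0.119 for HSP12. SSA4 had a log2 difference of 1.27 (interval 0.49 to 2.04) with an adjusted p of 0.0841 as labelled and 0.0693 exchanged. HSP26 had one of 1.51 (0.19 to 2.83, adjusted p = 0.234), HSC82 of 0.56, SSA2 of 0.51 and HSP104 of 0.44, while HSP42 at -0.03 and HSP30 at -0.16 lay near zero. Without strain number 5, 4 members passed as labelled (SSA1, HSP82, SSA4 and HSP12), and without number 1 or 12 there were 2.

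Other genes moved in the same columns. The 7 mating type a genes, marks of haploid a cells, summed to a median of 1467 RPM in evolved populations on glucose (41.1 to 4913) against 47.4 RPM in wild type strains on glucose (11.7 to 87.3), and 5 of the 6 tested were higher. The 4 mating type alpha genes summed to medians of 27.0 RPM in evolved populations (0 to 637) and 11.1 RPM in wild type strains (0 to 1548), with 0 changed. The 10 phosphate starvation genes summed to a median of 3839.5 RPM in evolved populations (407 to 12406) against 227 RPM in wild type strains (126 to 440.2), and 8 of the 9 tested were higher. Their part in the change of SSA1 was not tested.

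SSA1 lies on chromosome I, whose genes were low in 2 evolved numbers. These levels were taken relative to the mean of each gene over all 48 columns and to all genes. The median of chromosome I was then -0.36 on glucose and -0.93 on xylulose in evolved number 7, and -1.10 and -1.13 in evolved number 12. The lowest SSA1 level of the evolved glucose columns, 661 RPM, was in number 12. The call of SSA1 was kept with numbers 7 and 12 left out.

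On xylulose, no difference between evolved populations and wild type strains passed for any member. None was called as labelled, exchanged, or under any other alternative, where 0.937% of all tested genes were called, all of them lower, and 4.72% after the exchange, with 3.71% lower and 1.02% higher. At limma's unadjusted threshold of 0.05, 1 member passed, HSP30, blank in 2 evolved columns and 6 wild type columns. Its log2 difference was 0.86 (limma, adjusted p = 0.366). HSP12 had the widest difference, -1.63 (interval -3.44 to 0.18, adjusted p = 0.417). With the numbers exchanged its interval was -2.63 to -0.64, with an adjusted p of 0.0562 and lower values in 10 of 12. HSC82 (-0.08, interval -0.43 to 0.26) and SSA2 (0.04, interval -0.35 to 0.44) had the narrowest intervals.

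**Figure D3:**
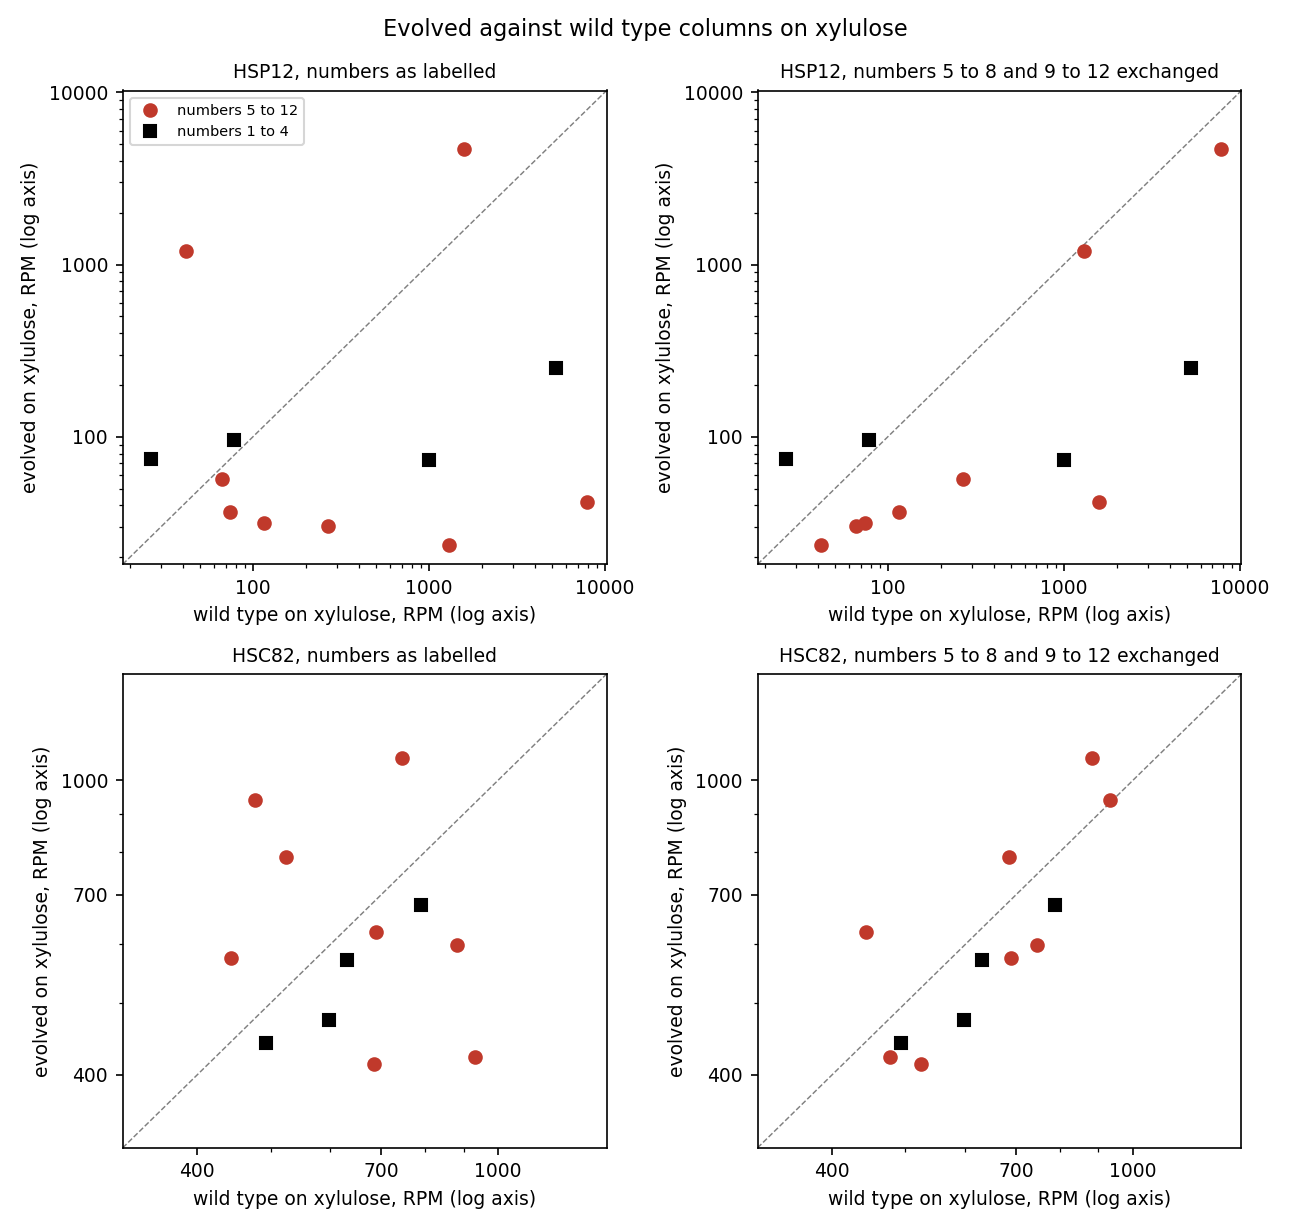
Level of HSP12 and HSC82 in evolved populations against wild type strains on xylulose, in RPM on log axes, paired by the labelled strain number on the left and with numbers 5 to 8 and 9 to 12 exchanged on the right. Squares are numbers 1 to 4, dots are numbers 5 to 12, and the dashed line marks equal levels. The dots lie closer to the line on the right, and 10 of the 12 HSP12 points lie below it there.

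The last comparison asked whether the response to xylulose itself had changed, by taking the log2 ratio of xylulose over glucose in evolved populations minus that in wild type strains. For HSP12, SSA1 and SSA4 it was more negative in evolved populations, where 4.95% of all tested genes were lower in this way, 0.487% higher and 5.44% changed. Taking off the chromosome median gave 157 lower and 85 higher genes, against 254 and 25. HSP12 changed most, by -3.71 ± 0.70 (adjusted p = 0.00251), in 11 of 12 strain numbers. In evolved populations HSP12 was 7.97-fold lower on xylulose, and in wild type strains it was 1.64-fold higher without passing. The change of SSA1 was -1.34 ± 0.31 (adjusted p = 0.0117) and that of SSA4 was -1.68 ± 0.40 (adjusted p = 0.0132), each in 10 of 12.

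With the evolved numbers exchanged the 3 genes kept their calls and HSP82 was added (-0.87 ± 0.28, adjusted p = 0.0477), where 7.35% of all tested genes were lower and 8.85% changed. SSA1 lost its call without a filter on low values (adjusted p = 0.0571). SSA4 lost it with a pseudocount of 1 (adjusted p = 0.146) and without numbers 7 and 12 (adjusted p = 0.0636), and HSC82 gained one without number 9 (-0.88, adjusted p = 0.0352). With numbers 1 to 4 alone no member was called, and 3 genes were higher and 28 lower of 5129. The mating type a and phosphate starvation genes moved here as well, 5 of 6 and 9 of 9 tested genes lower, and their part was not tested.

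The balance within the Hsp90 pair was compared as a ratio inside each column, which no scaling of the column can change. The genes are close in length (2130 and 2118 bases). HSP82 was at 0.120, 0.261 and 0.631 of HSC82 (lowest, median, highest) in evolved populations on xylulose, against 0.605, 0.900 and 1.603 on glucose. Before evolution it was at 0.0913, 0.298 and 0.748 on xylulose, against 0.262, 0.745 and 1.53 on glucose. HSC82 exceeded HSP82 in every xylulose column of both groups, while on glucose HSP82 was the higher in 4 of 12 evolved and 3 of 12 wild type columns.

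The log2 ratio was lower on xylulose by -1.73 ± 0.74 (SD, n = 12) in evolved populations, in 12 of 12 strain numbers (exact two-sided sign-flip permutation test, p = 0.000488, the smallest that 12 pairs allow, adjusted p = 0.00488 over 10 ratio tests). In wild type strains it was lower by -1.50 ± 1.37, in 10 of 12 (exact permutation p = 0.00635, adjusted p = 0.0317). The wild type call was lost without any 1 of strains 2, 4, 6, 7, 8, 11 and 12, with adjusted exact p between 0.0586 and 0.0635. No difference between evolved and wild type ratios passed on xylulose (0.00, adjusted exact p = 0.991) or on glucose (0.23, adjusted exact p = 0.670).

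No change of the balance passed in the Hsp70 pair. SSA1 stood at 1.02, 1.91 and 4.83 times SSA2 in evolved populations on xylulose and at 1.17, 3.24 and 9.11 times on glucose. Before evolution it stood at 0.686, 2.50 and 6.25 times on xylulose and at 0.423, 2.20 and 9.51 times on glucose. None of the 5 comparisons passed (adjusted exact p of 0.287 or more), though that of evolved with wild type on glucose did so without number 5 (0.96, adjusted exact p = 0.0195). SSA1 lies on chromosome I and SSA2, like HSP104, on chromosome XII. Relative to all genes, the chromosome XII median on glucose was 0.29 in evolved number 1 and 0.41 in number 3. That of chromosome I was -0.36 in evolved number 7 and -1.10 in number 12. The part of these chromosome levels in the ratio was not tested.

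**Figure D4:**
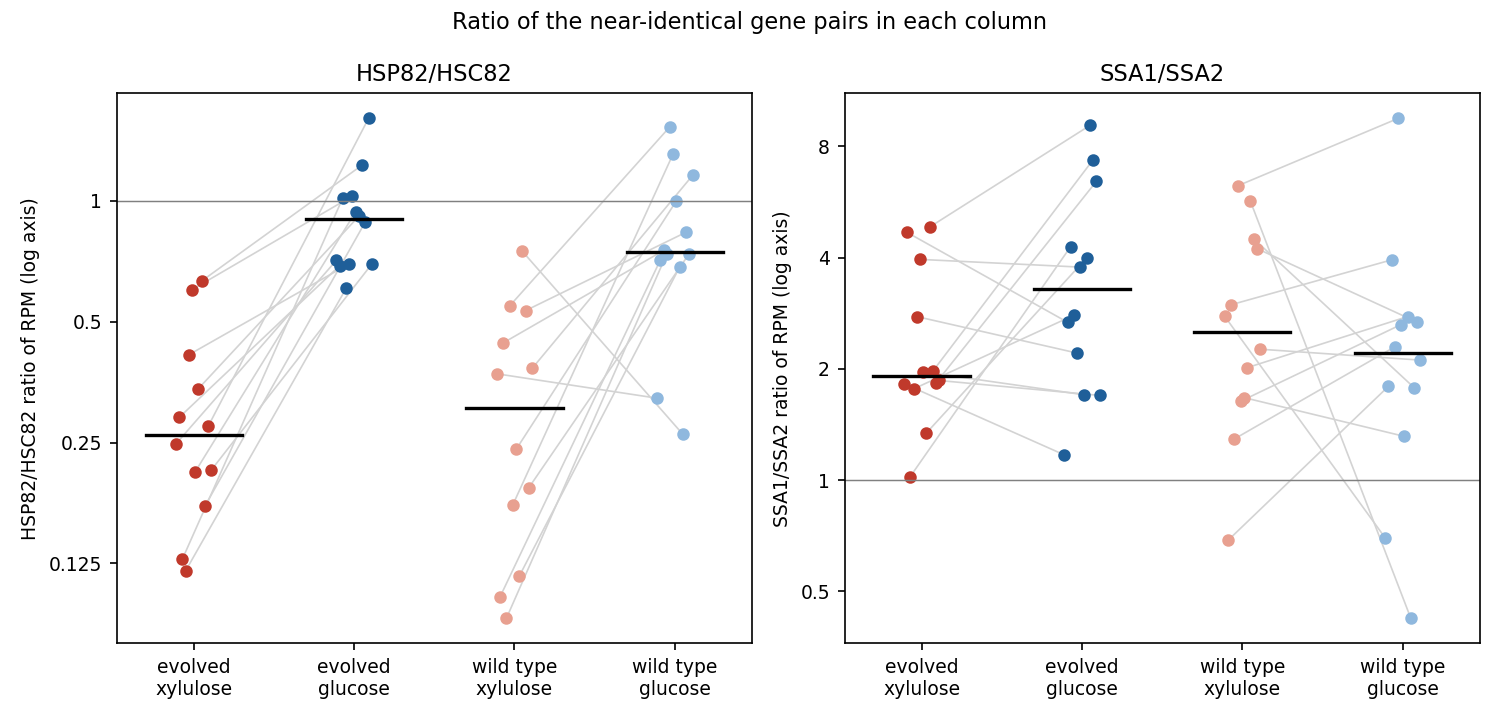
Ratio of HSP82 to HSC82 and of SSA1 to SSA2 (log axis) in evolved populations on xylulose and glucose and in wild type strains on xylulose and glucose. Dots are columns, grey lines join the columns of a strain number within a group and bars are medians. The median of HSP82 to HSC82 is 0.261 and 0.900 in evolved populations and 0.298 and 0.745 in wild type strains, xylulose before glucose.

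The strains differed from each other more in HSP12 than in any other member on xylulose. On xylulose, HSP12 exceeded 1000 RPM in 2 evolved columns, labelled CBS7960 (4658 RPM) and PW5 (1203 RPM), and was at most 250.004 RPM in the other 10. In wild type strains on xylulose it exceeded 1000 RPM in the columns labelled YJM269 (7881 RPM), YPS1009 (5306 RPM), CBS7960 (1589 RPM), EC1118 (1309 RPM) and T7 (1003 RPM), and was at most 268 RPM in the other 7. The evolved columns labelled CBS7960 and PW5 were the ones matched to wild type YJM269 and EC1118 in the label check. On glucose, HSP12 exceeded 1000 RPM in 5 evolved and 2 wild type columns. Its highest column was 197-fold above its lowest in evolved populations on xylulose, 300-fold in wild type strains on xylulose, 49.2-fold in evolved populations on glucose and 71.7-fold in wild type strains on glucose.

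The spread between wild type strains differed between the sugars in either direction. The SD of log2 levels over wild type strains on xylulose was 2.82 for HSP12, 1.93 for HSP42, 1.26 for SSA1, 1.23 for HSP82, 1.22 for HSP104 and 1.21 for SSA4, beside a median of 0.41 over the 2528 genes that were never blank. HSC82 (0.35) and SSA2 (0.47) were close to that median. On glucose the SD of wild type strains was 0.53 for HSP82, 0.53 for SSA1, 0.65 for HSP42 and 0.76 for HSP104, beside a median of 0.62, all smaller than on xylulose. It was larger than on xylulose for HSC82 (0.69) and SSA2 (0.83) and close to it for SSA4 (1.24). HSP30 was at 1.16 on xylulose and 1.23 on glucose, and HSP26 at 1.01 and 1.25. On xylulose 6 of 12 wild type columns of HSP30 and 5 of HSP26 were blank and set to 10 RPM, which can lower the SD. The differences in spread between the sugars were not tested.

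Single columns were often extreme for several members at once. Among wild type strains on xylulose, T73 had the lowest level of HSP12, HSP82, HSP104 and SSA1, and the column labelled EC1118 had the highest of HSP30, HSP82, HSC82, HSP104 and SSA2. On glucose, the wild type column labelled YJM269 was the highest for 6 members (HSP12, HSP42, HSP82, HSP104, SSA1 and SSA4), yet it had the lowest SSA2. Among evolved columns on glucose, the one labelled PW5 was highest for HSP12, HSP82, HSC82, SSA1 and SSA2.

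**Figure D5:**
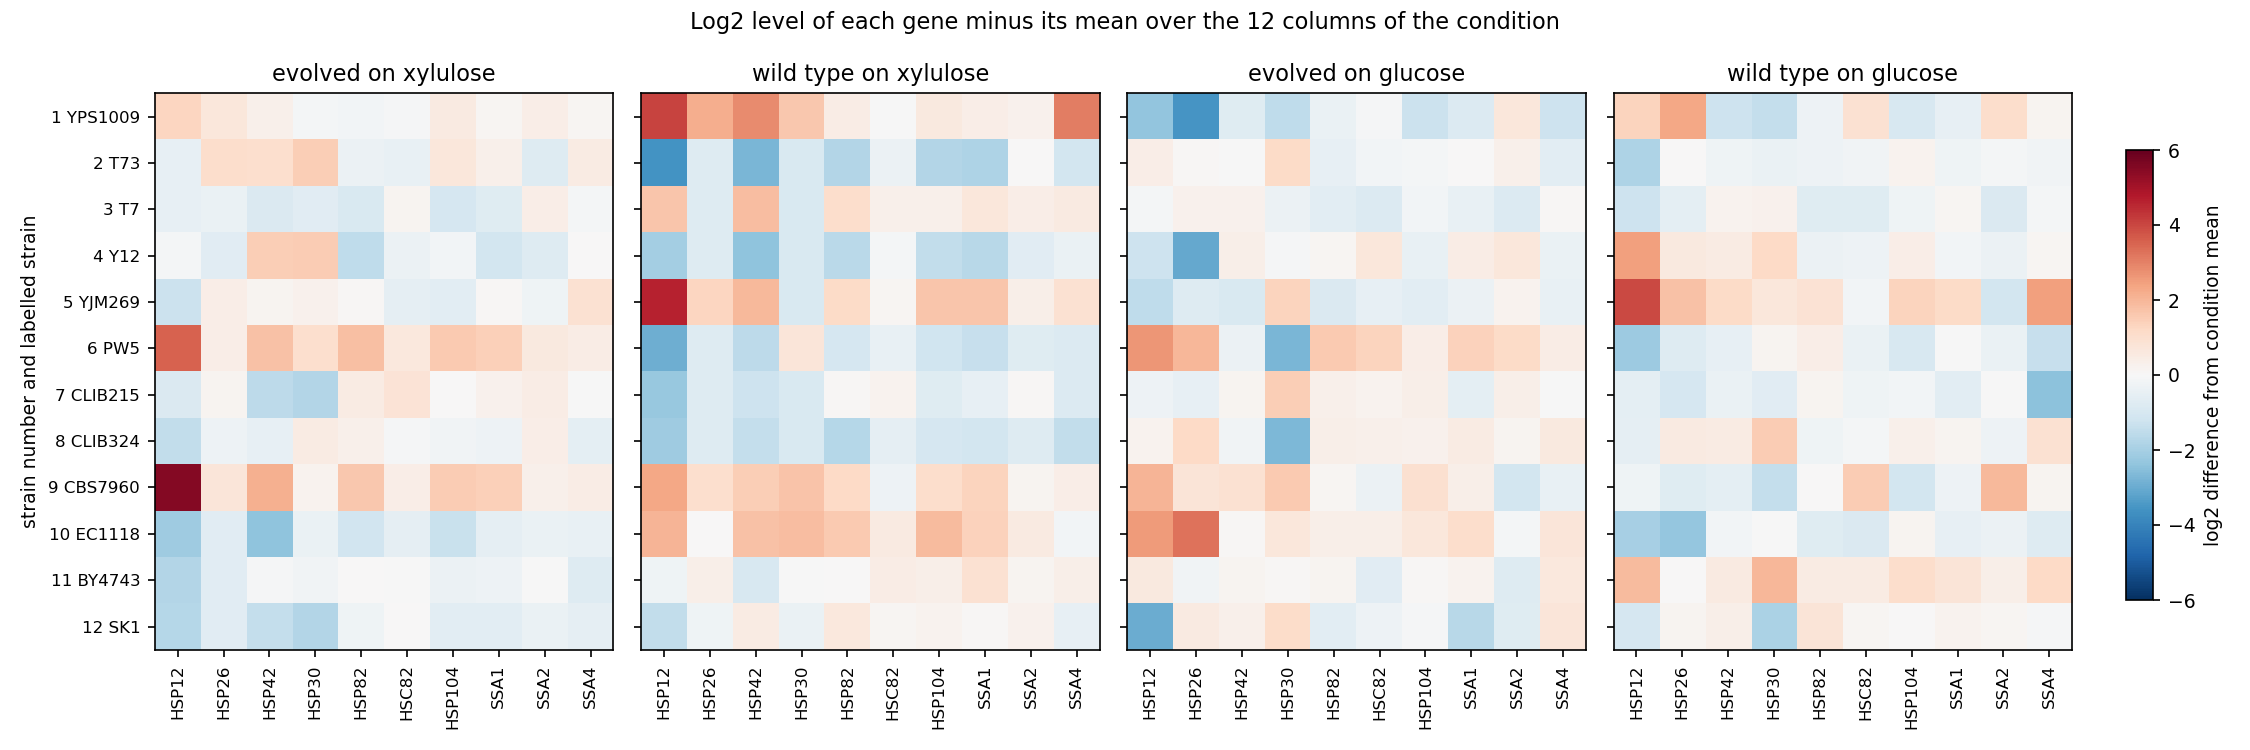
Log2 level of each gene in each column minus the mean of its condition, with evolved populations left of wild type strains. Red is above and blue below the mean, and the colour scale ends at 6 on either side. HSP12 shows the strongest colours on xylulose, and T73 is low for HSP12, HSP82, HSP104 and SSA1 in wild type on xylulose.

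Pearson r between members was taken across the 48 columns, with each condition's mean taken off. HSP12, HSP42, HSP82, HSP104 and SSA1 had r of 0.63 to 0.86 over their 10 pairs. Other pairs reached this range too, such as HSP26 with SSA4 (0.64) and HSP12 with HSP26 (0.64). The 5 genes were picked for their r with each other, and it did not hold in each condition. In evolved populations on glucose HSP42 had r of 0.08 with HSP82, 0.05 with SSA1 and 0.29 with HSP12. In wild type strains on glucose HSP82 had 0.29 with HSP104. The closest pairs were HSP82 with SSA1 (0.86), HSP104 with SSA1 (0.82), HSP42 with HSP104 (0.82) and HSC82 with SSA2 (0.81). Over all 45 pairs of members r ran between -0.34 and 0.86 with a median of 0.42. The near copies were less alike than these, at 0.52 for HSP82 with HSC82 and 0.29 for SSA1 with SSA2. The columns share strains and libraries, so these values describe the data and carry no p.

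The genes most like each member were taken by the same r among 4459 genes with a value in at least 40 columns. For HSP12 they were OM45 (0.87), MSC1 (0.86) and PNS1 (0.85), for HSP104 DCS2 (0.87), OM45 (0.87) and CTT1 (0.86), the cytosolic catalase, and for HSP42 PNC1 (0.88), RTC3 (0.88) and GPD1 (0.88). For HSP82 they were SSA1, TSL1 (0.78) and AHP1 (0.77), and for SSA1 HSP82, HSP104 and YDL124W (0.80). For HSC82 they were SSA2, the Hsp90 activator AHA1 (0.67) and PDR5 (0.67), and for SSA2 HSC82, UBC4 (0.67) and KAR2 (0.64). HSP26 was most like PAI3 (0.79) and SSA4 most like ATG8 (0.72), and HSP30 had values in 39 columns, too few for this list. The median r of the members with all genes compared was 0.06.

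Other chaperones were counted from lists, beside the same background of all tested genes. Of 8 tested mitochondrial chaperones, 6 were higher and 1 lower on xylulose than on glucose in evolved populations. Of all tested genes, 24.0% were higher and 15.5% lower there. In wild type strains 5 were higher, where 30.5% of all tested genes were. Among the higher ones in evolved populations were the protease PIM1 (log2 change 1.499) and TIM44 (1.34), which anchors the import motor. In wild type strains they included the chaperonin subunits HSP10 (1.596) and HSP60 (1.48). HSP78, the mitochondrial relative of HSP104, was the 1 that fell in evolved populations (-0.65). The mitochondrial Hsp70 gene SSC1 was higher on xylulose in both groups (0.93 in evolved populations, 0.80 in wild type strains).

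Outside the mitochondria, 0 of the 8 subunits of the cytosolic CCT chaperonin passed limma's test in either group. For this and the lists that follow, 24.0% of all tested genes were higher and 15.5% lower in evolved populations. In wild type strains 30.5% were higher and 9.38% lower. Of 11 other Hsp70 family genes, mitochondrial ones included, 5 were lower and 1 higher in evolved populations. The lower ones included the nucleotide exchange factor SSE2 (-1.24) and KAR2 of the endoplasmic reticulum (-0.77). In wild type strains 4 were lower, among them the ribosome-associated SSB1 (-0.66) and SSZ1 (-0.45), and 1 was higher. The 1 higher gene was the mitochondrial SSC1 in both groups. Of 13 J proteins and exchange factors, 3 were higher and 5 lower in evolved populations, and 2 were higher and 1 lower in wild type strains. SIS1 was lower (-1.05) and XDJ1 higher (1.07) in evolved populations. The ribosome-associated J protein ZUO1 was lower (-0.87) and JJJ3 higher (1.33) in wild type strains. Of 10 chaperones of the endoplasmic reticulum, 4 were lower in evolved populations and 3 in wild type strains, PDI1 with -1.07 in evolved populations and -0.82 in wild type strains.

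Among 12 Hsp90 co-chaperones, 2 were higher and 2 lower on xylulose in evolved populations, and 4 were higher in wild type strains. These shares are near those of all tested genes, 24.0% higher and 15.5% lower in evolved populations and 30.5% higher in wild type strains. AHA1, which stimulates the ATPase of Hsp90, was higher in wild type strains (1.11), and CPR6 was lower in evolved populations (-0.50). STI1, which links Hsp70 to Hsp90, was the 1 co-chaperone higher in evolved populations than in wild type strains on glucose (1.19, adjusted p = 0.0115). Of 7 other heat shock genes tested, SSA3, the remaining cytosolic Hsp70 gene of this subfamily, fell on xylulose in evolved populations (-0.60, adjusted p = 0.0109), and HSP31 (1.10) and HSP150 (0.71) rose in wild type strains.

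The regulators themselves were named whatever their change. HSF1 had log2 differences between the sugars of 0.08 in evolved populations (adjusted p = 0.740) and 0.62 in wild type strains (adjusted p = 0.0510). MSN4 was at -0.62 in evolved populations (adjusted p = 0.0789) and fell by 0.83 in wild type strains (adjusted p = 0.0374). MSN2 did not pass the filter on low values. RNA levels of these factors do not measure their activity.

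The members were last described by the elements upstream of them, and a link between element and response was not tested. All 7 members with a STRE were lower on xylulose in evolved populations, where 15.5% of all tested genes were, and 4 of them in wild type strains, where 9.38% were. Of the 3 without one (HSP30, HSC82 and SSA2), 1 was lower in evolved populations, and in wild type strains 1 was lower and 1 higher. The median log2 change of the 7 was -2.63 in evolved populations and -0.95 in wild type strains. Of the 4 members with a 3-unit HSE (HSP42, HSP104, SSA1 and SSA2), 4 were lower in evolved populations (median -1.56) and 2 in wild type strains (median -0.79), and 3 of these 4 also have a STRE. A list of 25 other STRE genes, chosen with earlier results of these data known, had 20 lower and 2 higher in evolved populations. In wild type strains it had 12 lower and 1 higher. Among its called genes that fell in at least 10 of 12 strain numbers, SPI1 (-2.76) and MSC1 (-2.56) fell most in evolved populations. In wild type strains PGM2 (-2.48) and TPS2 (-2.41) did so. Of the 98 tested genes outside the set with at least 3 STREs, 39.8% were lower in evolved populations and 27.6% in wild type strains, beside 12.7% and 8.15% of the 3264 genes with none. Of the 1642 genes with 1 or 2 STREs, the class of SSA1 and HSP82, 18.1% were lower in evolved populations and 9.68% in wild type strains.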

How the data were processed

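RNA of 12 strains before and after evolution was sequenced on glucose and on xylulose, 96 samples in all. The authors mapped 50-base single reads with Bowtie (version not given in the sources used here) to reference genome R64, dropped rRNA reads, counted PCR copies of 1 molecular identifier once, scaled each library to 1000000 and averaged 2 repeats. The deposited values are log2 RPM in 48 columns, blank below 10 RPM (84458 cells), with no other columns of values. The deposited values do not show the spread between repeats, so errors are over strains.

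Blanks were set to 10 RPM, and genes averaging 10 RPM or more (blanks counted as 0) were kept. limma 3.58.1 in R 4.3.3 (trended variances, Benjamini-Hochberg over 5129 genes, or 5123 for evolved over wild type on xylulose, where 6 genes had no difference in any pair) tested log2 differences within strain numbers, as the study took ratios within strains. The script was tested on simulated data. Ratios of paralogs were tested by exact two-sided sign-flip permutation over strains with Python 3.11.15 and scipy 1.17.1. Gene names, coordinates and sequences come from the R64 reference annotation, to which 5953 names matched.

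The pairing comes from the strain labels. Deviations of same-numbered columns on the 2 sugars had r over 0.1 for 10 of 12 evolved and 7 of 12 wild type numbers. Evolved and wild type columns of the same number did so for 3 of 12 on xylulose and 2 of 12 on glucose, and for 10 and 6 of 12 with the numbers exchanged.

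All 10 members were named in every comparison. From each list, the up to 2 genes that rose and 2 that fell most, moving alike in 10 or more of 12 strains, could be named, as could the 3 genes most like a member and the regulators. The members and lists were chosen with earlier results of these data known. Alternatives covered pseudocounts, blanks, filters, scaling, the variance model, the pairing and strains left out.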

Additional observations from a re-analysis of the deposited data

Results flagged for a closer look

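For 3 members the response to xylulose differed between evolved populations and wild type strains by the test of that difference itself (limma, 12 strain numbers, adjusted over all tested genes). The log2 ratio of xylulose over glucose in evolved populations minus that in wild type strains was -3.71 for HSP12 (lower in 11 of 12 strain numbers, adjusted p = 0.00251), -1.34 for SSA1 (10 of 12, adjusted p = 0.0117) and -1.68 for SSA4 (10 of 12, adjusted p = 0.0132). With the evolved strain numbers exchanged, the adjusted p was 7.45e-05 for HSP12, 0.00123 for SSA1 and 0.0102 for SSA4.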

How the results depend on the processing

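Of 18 calls of members over the 5 comparisons, 10 were kept under all 27 alternatives, 8 were lost under at least 1, and 0 changed sign. Of 32 values that were not called, 8 passed under at least 1 alternative and 16 changed sign under some. Depth is unknown for most columns, and levels near 10 RPM (HSP26, HSP30 and SSA4 on xylulose) rest on few reads. Repeats are not given separately in the deposited values, so the error between cultures of a strain could not be measured. The causes of the changes below were not tested.

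The count of members called for xylulose over glucose was 6 in wild type strains, and 1 with numbers 1 to 4 only, where calls over all genes fell to 373 higher and 108 lower of 5123. For the change of that ratio with evolution the count was 3, and 0 with numbers 1 to 4 only, where 3 genes were higher and 28 lower of 5129. For evolved over wild type on glucose it was 1, 3 with the numbers exchanged, and 1 to 4 with 1 strain number left out. Without the replicate block, so with columns unpaired, the counts were 5 for xylulose over glucose in wild type strains (SSA4 was lost, adjusted p = 0.0991), 8 in evolved populations, 0 and 1 for evolved over wild type on xylulose and on glucose, and 3 for the change. No other call of a member changed without the block. With numbers 7 and 12 left out, an alternative chosen after seeing the data, the counts were 6, 8, 0, 1 and 2 in the same order.

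Among values that were not called, SSA1 for xylulose over glucose in wild type strains turned to -0.13 after rescaling by the median of ratios, -0.0828 after taking off the chromosome median and -0.35 with numbers 1 to 4 only, and lay between -0.12 and 0.19 with 1 strain left out. For evolved over wild type on xylulose, HSP26 turned to 0.49 with a pseudocount of 1, 0.0781 with a pseudocount of 10, 0.0855 with blanks at 5 RPM and 0.11 with numbers 1 to 4 only. In the same comparison HSP30 turned to -0.23 with blanks left missing, SSA1 to 0.12 after taking off the chromosome median, and numbers 1 to 4 only gave 0.27 for HSP42, 0.51 for HSP104, 0.12 for SSA1 and -0.15 for SSA2. With 1 number left out there, HSP26 lay between -0.25 and 0.0565, HSP42 between -0.67 and 0.0595, HSP82 between -0.33 and 0.17, HSC82 between -0.18 and 0.0152, HSP104 between -0.34 and 0.21, SSA1 between -0.39 and 0.0421 and SSA2 between -0.0800 and 0.12. For evolved over wild type on glucose, numbers 1 to 4 only gave -0.64 for HSP26 and 0.14 for HSP42, and HSP30 was 0.10 with blanks left missing. With 1 number left out, HSP42 lay between -0.17 and 0.16 and HSP30 between -0.43 and 0.22. For the change with evolution, numbers 1 to 4 only gave 0.75 for HSP26, 0.13 for HSP42 and 0.42 for HSP104, HSP30 was -0.82 with blanks left missing, and HSP42 lay between -0.65 and 0.11 with 1 number left out.

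The log2 change of the HSP82 to HSC82 ratio on xylulose over glucose was -1.44 in wild type strains without numbers 7 and 12 (adjusted exact p = 0.117). With numbers 1 to 4 only it was -1.59 in wild type strains and -2.02 in evolved populations, where the smallest exact p is 0.125, and it lay between -1.78 and -1.37 in wild type strains with 1 strain left out. For evolved over wild type on xylulose this ratio was -0.12 with numbers 1 to 4 only and between -0.16 and 0.17 with 1 number left out. The SSA1 to SSA2 ratio turned to -0.16 for xylulose over glucose in wild type strains and to 0.27 for evolved over wild type on xylulose with numbers 1 to 4 only. On glucose, evolved over wild type, it lay between 0.37 and 0.96 with 1 number left out.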

Other observations

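Of 11 tested heat shock and stress regulators, 3 were higher and 2 lower on xylulose than on glucose in evolved populations, where 24.0% of all tested genes were higher and 15.5% lower. In wild type strains 2 were higher and 1 lower, where 30.5% of all tested genes were higher and 9.38% lower. YAP1, a regulator of the oxidative stress response, was higher on xylulose than on glucose in 12 of 12 wild type strains (log2 change 1.52, limma adjusted p = 2.09e-06), and this response was smaller in evolved populations by -0.91 (adjusted p = 0.0249). GIS1 (1.13, adjusted p = 0.000476) and SKN7 (0.64, adjusted p = 0.00371) were higher on xylulose in 12 of 12 evolved populations, and RAS2 was lower in 11 of 12 (-0.68, adjusted p = 0.00177). Among the other STRE genes, the response of DDR2 (-3.07, adjusted p = 0.00660) and GRE1 (-2.57, adjusted p = 0.0107) to xylulose was more negative in evolved populations in 11 of 12 strain numbers, as it was for HSP12. SSB1, the ribosome-associated Hsp70, was the reverse case, with a response that was more positive in evolved populations (0.62, adjusted p = 0.0397). HOR7 was the 1 gene of the STRE list called between evolved populations and wild type strains on xylulose (-1.38, adjusted p = 0.0402).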
